A study of Mus musculus with 48 samples.

Results

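Among the CD4+ T cell clonotypes of 4 mice bearing bilateral Lewis lung carcinoma, 2561 were found in 3 or 4 of the mice at levels that differed by less than 100-fold. A clonotype was defined by the V segment, the J segment and the CDR3 amino acid sequence of its TCRβ chain. For each mouse, its value was the highest percentage of reads it reached in any CD4+ library of that mouse. The shared clonotypes were selected on these measured values, so the number of mice and the values are described here without a test. They made up 1.65% of the 155613 CD4+ clonotypes, and 573 of them were found in 4 mice and 1988 in 3. Of the other clonotypes, 143578 were found in 1 mouse and 9386 in 2, and 88 were found in 3 or 4 mice but differed by 100-fold or more.

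The T cells came from female C57BL/6 mice (C57BL/6J in the study's methods), aged 8 weeks, that had received LLC cells subcutaneously on both sides of the back and were killed on day 13. All mice carried tumors, no untreated mouse was compared, and the dLN was the brachial lymph node of each side. CD4+ T cells, negative for CD8, NK1.1 and other lineage markers and for intravenous staining, were sorted from the tumors, and the CD44hi fraction of such cells was sorted from the dLNs, so tumor and dLN differed in the gate as well as in the organ. Every tumor was cut into 2 fragments that were sequenced separately, which gave 16 tumor and 8 dLN libraries for CD4+ T cells, beside 24 libraries of CD8+ T cells from the same organs. The files hold TCR sequences only, so the sorted cell types were not checked against marker genes here.

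The CD4+ libraries held between 326582 and 3041083 reads. A single read was between 3.29e-05% and 0.000306% of a library, and a count of 0 in a library allows a share of up to 9.86e-05% to 0.000919%, counted as 3 reads and covering counting error only, since reads were not counted as molecules. CD4+ libraries of different mice shared between 31 and 292 clones with identical V, J and CDR3 nucleotide sequence, which was 0.631% to 1.99% of the clones of the smaller library, and the highest 2 pairs shared 292 and 291.

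A TCRβ chain is made in the thymus by joining a V, a D and a J segment, with bases trimmed from the segment ends and random bases added by terminal transferase between them. The CDR3 spans these joints and contacts the peptide presented by MHC. TCRs found in several individuals are called public, and many different recombination events can encode the same public CDR3 because the genetic code is degenerate, a process known as convergent recombination.

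The clonotype TRBV1 TRBJ2-4 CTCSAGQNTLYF showed how the same CDR3 was encoded in the 4 mice. It had 13 CDR3 nucleotide sequences over the CD4+ libraries, with 5, 5, 7 and 6 in mice 5, 6, 7 and 8. Of these sequences, 6 are given here 5′ to 3′ to show the joints, with the bases between the end of the aligned V segment and the start of the aligned J segment in capitals.
Found in 4 mice: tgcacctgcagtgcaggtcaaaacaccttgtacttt
Found in 3 mice: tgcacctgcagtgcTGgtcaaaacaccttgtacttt
Found in mice 6 and 7: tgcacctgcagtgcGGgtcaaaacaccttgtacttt
Found in mice 6 and 8: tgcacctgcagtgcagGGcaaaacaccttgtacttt
Found in mice 5 and 8: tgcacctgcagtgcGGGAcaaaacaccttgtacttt
Found in mouse 5: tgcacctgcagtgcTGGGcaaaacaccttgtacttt
The first sequence, with V joined to J without a base between them, was the only 1 of the 13 found in every mouse. It reached 0.392% of a library in mouse 5, 0.121% in mouse 6, 0.139% in mouse 7 and 0.113% in mouse 8. In mouse 6 the most frequent sequence was another, with 2 bases between V and J, which reached 0.768% there and 0.00459% in mouse 7.

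For TRBV1 TRBJ2-4 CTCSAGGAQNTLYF, none of the 5 nucleotide sequences was found in more than 1 mouse. The most frequent sequence of each of its 3 mice is shown, with capitals as above.
Mouse 5: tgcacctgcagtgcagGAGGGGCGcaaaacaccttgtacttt
Mouse 6: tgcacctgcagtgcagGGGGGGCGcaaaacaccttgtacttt
Mouse 7: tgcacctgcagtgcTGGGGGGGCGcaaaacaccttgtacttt
These reached 0.410%, 0.368% and 0.0997% of a library, and mouse 8 had no read of the clonotype. The capitals held 8, 8 and 10 bases, of which 2, 0 and 0 were counted as inserted because the files assign the rest to a D segment.

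The largest shared clonotype, TRBV31 TRBJ1-3 with a CDR3 of 15 residues, had 4 nucleotide sequences and none in all 4 mice.
Found in mice 5, 6 and 8: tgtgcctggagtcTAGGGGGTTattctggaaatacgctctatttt
Found in mice 5, 7 and 8: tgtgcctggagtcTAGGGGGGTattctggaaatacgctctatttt
Found in mouse 5: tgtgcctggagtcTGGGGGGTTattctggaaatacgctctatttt
Found in mouse 7: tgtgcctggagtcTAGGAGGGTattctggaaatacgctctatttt
The sequence of mouse 5 alone was the most frequent there, at 0.764% of a library, and that of mouse 7 alone was the most frequent in mouse 7, at 0.251%.

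For most shared clonotypes, no single nucleotide sequence was found in all of their mice. Over all mice, the shared clonotypes had a median of 3 CDR3 nucleotide sequences and at most 17, and 2441 of them (95.3%) had several. No nucleotide sequence was common to all the mice of 2185 shared clonotypes (85.3%), and no sequence was common to any pair of mice for 845 (33.0%). A sequence common to all their mice was found for 376 (14.7%), and 120 had only 1 sequence in all. Those in 4 mice had a mean of 4.92 sequences and those in 3 mice a mean of 3.16, counts that rise with the number of mice by their nature.

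Within a single mouse, shared clonotypes also had more nucleotide sequences than clonotypes of 1 mouse. The mean number per clonotype was 1.45 ± 0.0851 for shared clonotypes and 1.04 ± 0.00268 for clonotypes of 1 mouse (SD, n = 4 mice), and it was higher in all 4 mice. Several sequences were found for 30.8% ± 4.38 of the shared clonotypes of a mouse and 4.19% ± 0.226 of the clonotypes of 1 mouse (SD, n = 4). Means of different mice are not independent for shared clonotypes, since the mice share them. Only sequences with at least 10% of the reads of the clonotype in the mouse were then counted. The means were 1.27 ± 0.0497 for shared clonotypes and 1.02 ± 0.00259 for those of 1 mouse (SD, n = 4).

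The difference between shared clonotypes and those of 1 mouse was small for rare clonotypes and large for frequent ones. The value that sets the size class sums all sequences of a clonotype. Under 0.001% it may rest on few reads, as 1 read was up to 0.000306% of a library. Both bear on the number of sequences found, so nothing is read from this trend. Among clonotypes whose value in the mouse was over 0.01%, shared ones had 1.89 ± 0.214 sequences and those of 1 mouse 1.10 ± 0.0210 (SD, n = 4). Between 0.001% and 0.01%, the means were 1.33 ± 0.0980 and 1.04 ± 0.00496. Under 0.001%, they were 1.05 ± 0.0312 and 1.01 ± 0.00615, a difference of 0.0339 ± 0.0257 (SD, n = 4).

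The clonotypes with the most nucleotide sequences used TRBV20, TRBV1 and TRBV26. TRBV20 TRBJ2-7 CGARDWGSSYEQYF had 17, with 4, 11, 8 and 8 in mice 5 to 8, and was found in all 16 tumor and all 8 dLN libraries. TRBV1 TRBJ1-1 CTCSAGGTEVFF and TRBV20 TRBJ2-5 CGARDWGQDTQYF had 14 each, and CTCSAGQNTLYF and TRBV26 TRBJ2-7 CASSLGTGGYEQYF had 13 each. Every sequence with a read was counted, and the rarest of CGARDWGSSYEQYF reached only 6.96e-05% of a library, in mouse 7. Whether read errors added to these counts was not tested. The sequences of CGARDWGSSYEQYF found in all 4 mice are shown with capitals as above.
More frequent in each mouse: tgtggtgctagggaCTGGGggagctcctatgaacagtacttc
Less frequent in each mouse: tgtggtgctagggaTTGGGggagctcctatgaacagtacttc
The first reached 0.0226%, 0.0570%, 0.0162% and 0.0462% of a library in mice 5 to 8. The second was lower in every mouse, at 0.00444%, 0.00283%, 0.00449% and 0.00182%.

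Shared clonotypes had short CDR3s. Their mean length was 13.30 ± 0.0137 residues and that of clonotypes of 1 mouse 13.96 ± 0.0303 (SD, n = 4 mice), a difference of -0.66 ± 0.0218 residues that was negative in all 4 mice. Clonotypes of 2 mice lay between them, at 13.54 ± 0.0259. The 88 over the 100-fold limit had a mean of 13.17 ± 0.0494 residues (SD, n = 4 mice). Short CDR3s were thus not particular to the shared clonotypes. The shared CDR3s ranged from 9 to 17 residues and those of 1 mouse from 4 to 25. CDR3s of 16 residues were 2.03% of the shared clonotypes and 9.32% of those of 1 mouse, whereas CDR3s of 12 residues were 16.4% and 10.3%. Within pairs of the same V and J segment the difference in length was -0.62 ± 0.0254 (SD, n = 4). Those in 4 mice had a mean of 13.10 residues, and those in 3 mice 13.38 ± 0.0139 (SD, n = 4).

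**Figure D1:**
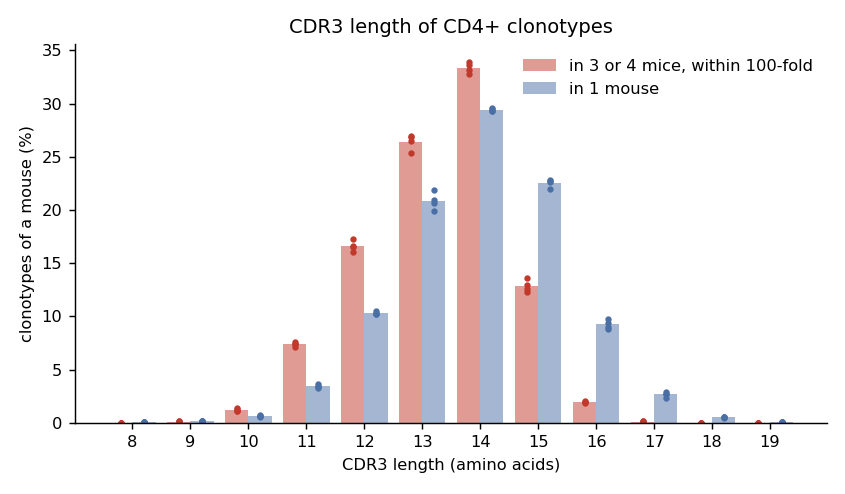
CDR3 length in amino acids against the percentage of a mouse's CD4+ clonotypes, for clonotypes in 3 or 4 mice (red) and in 1 mouse (blue). Bars are means over 4 mice and points are mice; the shared clonotypes have larger shares at 10 to 14 residues and smaller shares from 15 residues on.

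The joints of shared clonotypes held few inserted bases. Inserted bases were those that the positions in the files assign to none of V, D and J, with the whole stretch between V and J counted where no D segment was assigned. The mean was 2.01 ± 0.0279 per CDR3 for shared clonotypes and 3.70 ± 0.0181 for clonotypes of 1 mouse (SD, n = 4 mice), a difference of -1.69 ± 0.0392. Clonotypes of 2 mice had 2.33 ± 0.0315 and the 88 over the 100-fold limit 1.87 ± 0.154 (SD, n = 4), so that few inserted bases were not particular to the shared clonotypes. A clonotype whose every sequence in the mouse had no inserted base was 22.7% ± 0.970 of the shared clonotypes of a mouse and 7.99% ± 0.196 of those of 1 mouse (SD, n = 4). The whole stretch between V and J was 6.55 ± 0.0406 and 9.98 ± 0.0665 bases long (SD, n = 4). No D segment was assigned in 40.3% ± 0.446 of shared CDR3s and 22.7% ± 0.321 of those of 1 mouse (SD, n = 4).

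This difference in inserted bases was found in every size class and within segments. For clonotypes with values over 0.01% the means were 2.07 ± 0.0338 and 3.61 ± 0.0680, and for those under 0.001% they were 2.05 ± 0.149 and 3.85 ± 0.0634 (SD, n = 4). Within pairs of the same V and J segment it was -1.71 ± 0.0419 (SD, n = 4). When the longest match of at least 3 bases to TRBD1 or TRBD2 was taken as D in place of the positions in the files, the means were 1.47 ± 0.0155 and 3.61 ± 0.0326 (SD, n = 4).

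**Figure D2:**
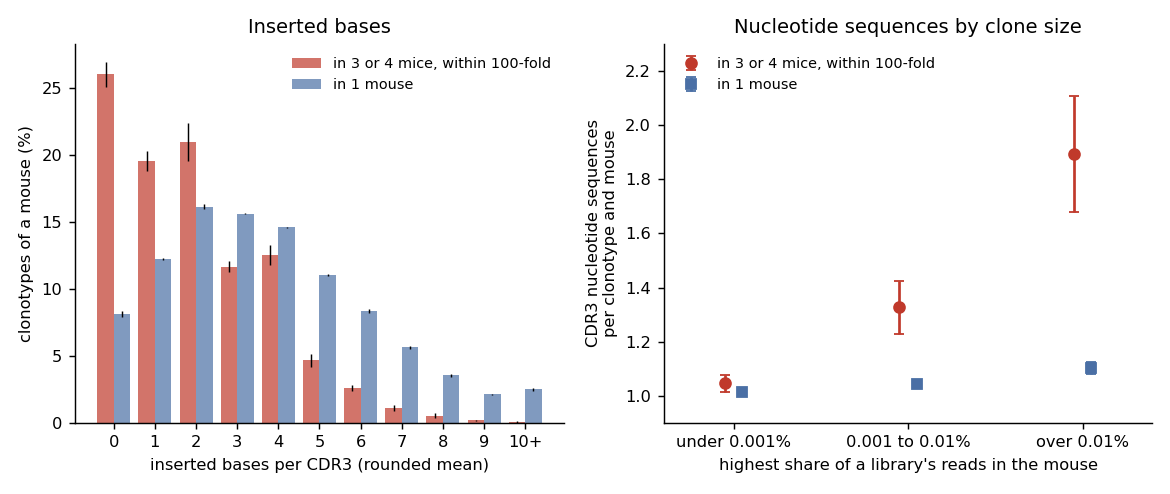
Left, inserted bases per CDR3, averaged over the sequences of a clonotype and rounded, against the percentage of a mouse's CD4+ clonotypes; right, CDR3 nucleotide sequences per clonotype and mouse in 3 classes of the highest share of a library's reads, on an axis that starts at 0.9. Bars and points are means over 4 mice with SD, and shared clonotypes (red) have fewer inserted bases than clonotypes of 1 mouse (blue) and, above 0.001%, more nucleotide sequences.

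TRBV13-2 was the V segment with the largest excess among shared clonotypes in percentage points. It is annotated as a TCR V gene on chromosome 6 of GRCm38 from 41121396 to 41121832, and it encoded 590 shared clonotypes, 23.0%, against 13.4% of the clonotypes of 1 mouse. TRBV3 (chromosome 6, 41048290 to 41048828) encoded 11.7% and 8.11%, and TRBV1 (chromosome 6, 40891229 to 40891885) encoded 9.64% and 7.16%. All 3 were higher among shared clonotypes in 4 of 4 mice. Per mouse, TRBV13-2 made up 22.4% to 23.7% of the shared clonotypes and 12.0% to 14.5% of those of 1 mouse.

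In percentage points, TRBV29, TRBV13-3 and TRBV19 were the V segments with the largest differences in the other direction. TRBV29 (chromosome 6, 41271394 to 41271881) encoded 16 shared clonotypes, on average 0.574% ± 0.146 of those of a mouse, against 4.83% ± 0.806 of its clonotypes of 1 mouse (SD, n = 4). TRBV13-3 (41130147 to 41130585) encoded 3.44% and 6.28%, and TRBV19 (41178375 to 41179048) 4.06% and 6.57%, each lower in 4 of 4 mice. Rarer segments with low shares were TRBV23, at 0.117% of the shared clonotypes against 0.964% of those of 1 mouse, and TRBV24. None of the shared clonotypes used TRBV24, which is annotated as a V pseudogene, and 660 CD4+ clonotypes did. TRBV13-2 and TRBV13-3, which lie near each other in the same locus, thus differed in opposite directions. The V segments known from invariant NKT cells, TRBV13-1, TRBV13-2, TRBV13-3, TRBV29 and TRBV1, together encoded 41.0% of the shared clonotypes and 38.5% of those of 1 mouse, and NK1.1+ cells had been gated out.

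Among J segments, TRBJ2-7 (chromosome 6, 41543810 to 41543856) encoded 625 shared clonotypes, 24.4%, against 18.1% of those of 1 mouse. TRBJ1-1 (41533864 to 41533911) encoded 11.8% and 9.53%, and TRBJ1-3 (41534323 to 41534376) 6.76% and 5.60%. Lower among shared clonotypes were TRBJ2-1 (41542754 to 41542803) with 6.99% and 10.7%, TRBJ2-2 (41542957 to 41543007) with 4.06% and 6.02%, and TRBJ1-5 (41535084 to 41535133) with 1.64% and 3.51%. Each of these 6 differences had the same direction in 4 of 4 mice. The J clusters as wholes differed little, with cluster 1 at 33.4% of the shared clonotypes and 34.5% of those of 1 mouse. TRBV13-2 with TRBJ2-7 was the pair with the largest difference, at 150 shared clonotypes, 5.86%, against 2.41%.

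**Figure D3:**
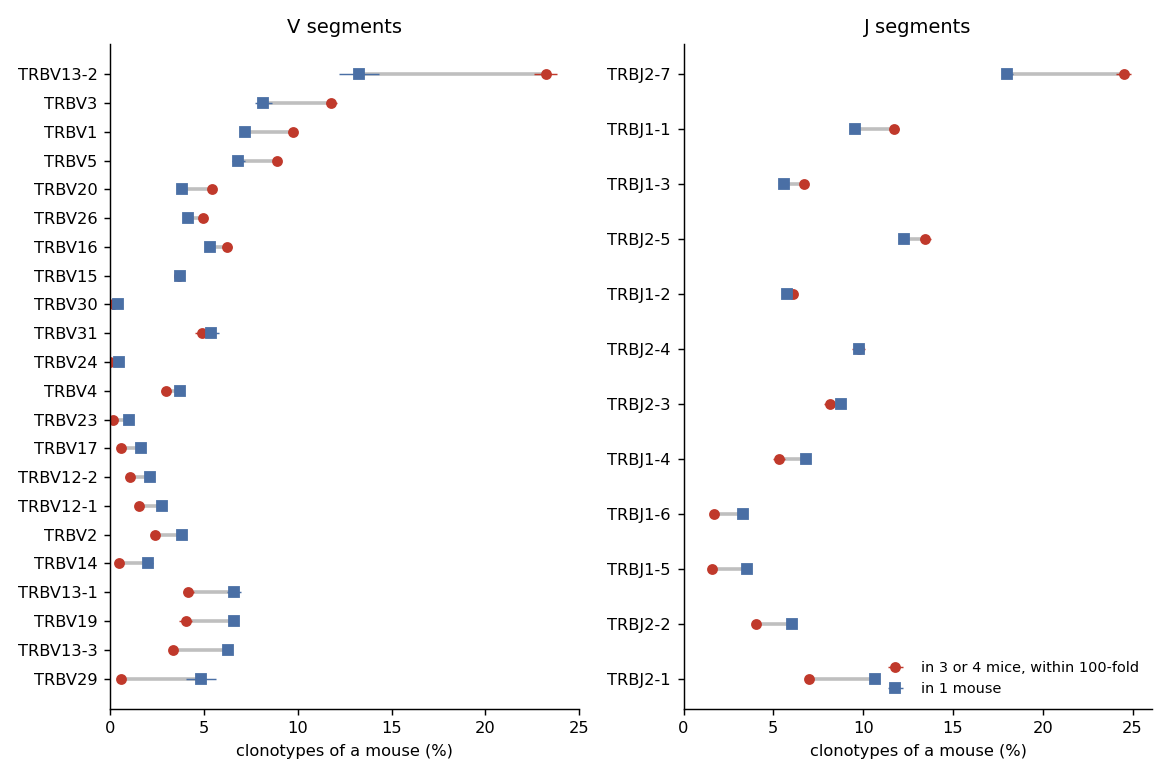
Percentage of a mouse's CD4+ clonotypes encoded by each V segment (left) and J segment (right) with at least 500 clonotypes, for clonotypes in 3 or 4 mice (red circles) and in 1 mouse (blue squares), as means over 4 mice with SD. Segments are ordered by the difference, from TRBV13-2 and TRBJ2-7 at the top, higher among shared clonotypes, to TRBV29 and TRBJ2-1 at the bottom, lower.

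Short joints were not limited to the segments with an excess. Within TRBV13-2, shared clonotypes had 1.90 ± 0.0304 inserted bases and those of 1 mouse 3.86 ± 0.0614 (SD, n = 4), and within TRBV13-3 the means were 1.68 ± 0.140 and 3.57 ± 0.0511. Within TRBV29, they were 1.92 ± 0.657 and 4.07 ± 0.0884 (SD, n = 4). Within TRBJ2-7, mean lengths were 12.74 ± 0.0254 and 13.39 ± 0.0262 residues, and within TRBJ2-1 they were 13.85 ± 0.0146 and 14.28 ± 0.0530 (SD, n = 4).

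In the inner part of the CDR3, without the first and last 4 residues, shared clonotypes held less arginine and proline and more aspartate and asparagine. Arginine made up 3.30% of inner residues in shared clonotypes and 6.00% in those of 1 mouse, and proline 1.40% and 3.45%. Aspartate made up 11.1% and 8.81%, and asparagine 9.80% and 8.08%. Glycine, which D segments encode, was the most common inner residue of both, with 22.9% and 22.0%. The inner residues of a CDR3 depend on its V and J segments and on its length, which differed as given above.

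Shared clonotypes lay close to other clonotypes in sequence. In a mouse, 93.6% ± 2.40 of them had another clonotype with the same V and J segment and a CDR3 that differed at a single residue, and 45.4% ± 3.56 of clonotypes of 1 mouse had such a neighbour (SD, n = 4). Among the CDR3s of shared clonotypes, 48.9% were also found with another V segment in the CD4+ libraries, against 19.1% for clonotypes of 1 mouse. Neither trait was particular to the shared clonotypes, as 79.9% ± 4.62 of clonotypes of 2 mice and 92.0% ± 3.08 of the 88 over the 100-fold limit had a neighbour (SD, n = 4), and the CDR3s of 42.5% and 62.5% were found with another V segment.

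Most shared clonotypes were rare in every mouse. The median of their values was 0.00528% of a library, and the lowest and highest were 3.67e-05% and 1.40%. A value over 0.1% in some mouse was reached by 96 shared clonotypes and a value over 1% by 2. Per mouse, the median value was 0.00548% ± 0.00140 for shared clonotypes and 0.00323% ± 0.000962 for those of 1 mouse (SD, n = 4). The median ratio of the highest to the lowest value of a clonotype was 6.07, and the ratio was under 10 for 1724. In 36 shared clonotypes the total in some mouse was a single read.

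The 100-fold limit did not fall at a gap in the ratios. Just inside it were TRBV3 TRBJ2-5 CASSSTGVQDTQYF with a ratio of 96.3, TRBV13-3 TRBJ2-7 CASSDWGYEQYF with 95.8 and TRBV13-2 TRBJ2-4 with a CDR3 of 16 residues and 94.9. Just outside were TRBV3 TRBJ2-7 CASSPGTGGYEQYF with a ratio of 100.7, TRBV14 TRBJ2-4 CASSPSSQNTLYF with 101.4 and TRBV2 TRBJ2-7 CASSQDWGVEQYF with 101.6. The highest values of the 3 just inside lay between 0.0315% and 0.0332%, and those of the 3 just outside were 0.0271%, 0.00744% and 0.0622%.

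The mouse in which a shared clonotype was most frequent varied. The highest value fell in mouse 5 for 761, in mouse 6 for 633, in mouse 7 for 500 and in mouse 8 for 667. These mice held 1805, 2168, 2177 and 2106 of the shared clonotypes, so that mouse 5 held the fewest and was most often the highest. Across shared clonotypes, the log10 values of a pair of mice correlated with r between 0.24 and 0.30 over 1350 to 1784 clonotypes. The 100-fold limit was set on these same values and bears on this r, so it is not compared with the following. The log10 counts of the left and right tumor of the same mouse correlated with r between 0.68 and 0.77 over 318 to 660 shared clonotypes, and those of the left and right dLN with r between 0.50 and 0.55 over 349 to 543. These are descriptions across clonotypes found on both sides, which share libraries and are not replicates.

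The 10 shared clonotypes with the highest mean value held 20.2% ± 7.40 of the shared clonotypes' reads in tumors and 13.0% ± 3.77 in dLNs (SD, n = 4 mice). The TRBV31 TRBJ1-3 clonotype with 15 residues had values of 1.40%, 0.736%, 0.279% and 0.247% in mice 5 to 8. In tumors it made up 1.26%, 0.626%, 0.199% and 0.222% of reads and in dLNs 0.825%, 0.345%, 0.230% and 0.116%. It was found in all 24 CD4+ libraries, was higher in tumor than in dLN in 3 mice and lower in mouse 7.

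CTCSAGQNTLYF with TRBV1 and TRBJ2-4 had values of 0.795%, 1.04%, 0.241% and 0.247%, and it too was found in all 24 libraries. Its tumor shares were 0.657%, 0.942%, 0.217% and 0.132% and its dLN shares 0.490%, 0.259%, 0.197% and 0.157%. The tumor share was above the dLN share in mice 5, 6 and 7 and below it in mouse 8. Among the 10 largest, 5 used TRBV1, and their CDR3s all began with CTCSA.

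TRBV13-1 TRBJ2-7 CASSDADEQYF lay mostly in tumors. It made up 0.279%, 0.514% and 0.0388% of tumor reads in mice 5, 6 and 7, was found in all 12 tumor libraries of these mice, and had no read in mouse 8. In dLNs it made up 0.00616% and 0.00279% in mice 5 and 6 and had no read in mouse 7. Its fitted log2 ratio of tumor to dLN was 6.54, and its adjusted p in edgeR's quasi-likelihood test was 1.

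TRBV1 TRBJ2-4 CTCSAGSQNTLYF had the highest ratio between mice with reads among the 10, with values of 0.0199%, 0.164%, 0.00902% and 0.659% in mice 5 to 8. In mouse 8 it made up 0.544% of tumor reads and 0.0545% of dLN reads. TRBV13-2 TRBJ1-3 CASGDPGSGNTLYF had values of 0.353%, 0.207%, 0.00615% and 0.328%, and had no read in the tumors of mouse 7. TRBV1 TRBJ1-1 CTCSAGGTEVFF had the lowest such ratio, with 0.150%, 0.187%, 0.0681% and 0.264%.

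Higher in dLN in each mouse were a pair of the 10. The TRBV1 TRBJ1-1 clonotype with 15 residues made up 0.0572%, 0.164%, 0.241% and 0.106% of dLN reads in mice 5 to 8 and 0.00783%, 0.0549%, 0.131% and 0.0447% of tumor reads. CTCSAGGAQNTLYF made up 0.349%, 0.340% and 0.0799% of dLN reads in mice 5, 6 and 7 and 0.226%, 0.0627% and 0.0289% of tumor reads. Both had an adjusted p of 1 in edgeR's quasi-likelihood test.

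**Figure D4:**
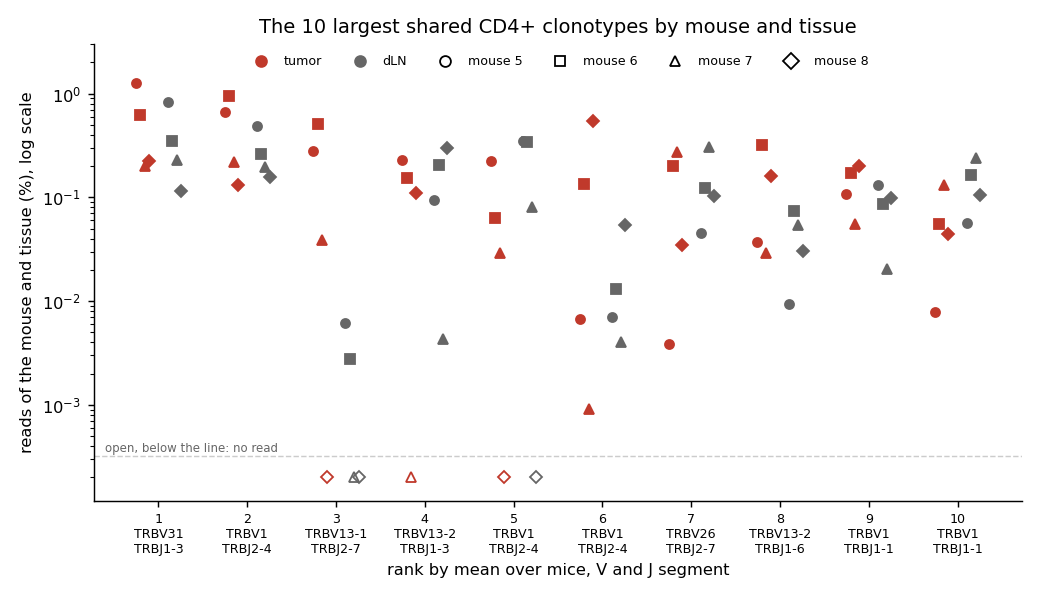
Share of the reads of each mouse and tissue, on a log scale, for the 10 shared CD4+ clonotypes with the highest mean value, in tumors (red) and dLNs (grey), with a marker for each of 4 mice. Open markers below the dashed line stand for no read; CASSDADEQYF, the third, lies higher in tumors than in dLNs in the 3 mice that have it, and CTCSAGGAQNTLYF and the TRBV1 TRBJ1-1 clonotype with 15 residues lie higher in dLNs in each mouse that has them.

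Tumor and dLN were compared for each clonotype with edgeR's quasi-likelihood test on reads summed per mouse and tissue, 4 tumor against 4 dLN sums. Clonotypes with a read in at least 3 of the 8 sums were tested, 5311 in all, and the 2561 shared clonotypes were all among them because the rule places them in at least 3 mice. No shared clonotype passed an adjusted p of 0.05 in either direction, and the share called over all clonotypes tested was 0.0% in both. At an unadjusted p under 0.05, 93 shared clonotypes were higher in tumor and 300 higher in dLN, which is 3.63% and 11.7% of them against 1.77% and 5.74% of all tested. Clonotypes of 1 mouse could not enter the test, and those of 2 mice entered only if found in both tissues of at least 1 mouse, so the shared clonotypes were 93 of the 94 and 300 of the 305 below this p and nothing is read from the difference in percentages. The counts themselves stand beside 102 shared clonotypes with no read in any dLN and 300 with none in any tumor, which entered through 1 tissue only. With the mouse as a replicate block, 5 and 14 shared clonotypes had an unadjusted p under 0.05, and none passed after adjustment. With clonotypes in 2 of the 8 sums allowed, these numbers were 1 and 300. DESeq2 called none of the shared clonotypes to which it gave an adjusted p, with a lowest adjusted p of 0.093 and with 103 and 314 at an unadjusted p under 0.05, and it gave 346 of them no adjusted p. The spread between mice was large, with a median dispersion of 11.1.

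The 6 shared clonotypes with the smallest p in either direction had no read in the other tissue. They were shared and tested only through the tissue in which they were found, so their order by p follows in part from the choice and is given as a description. Higher in tumor were TRBV3 TRBJ2-1 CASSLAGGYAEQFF, TRBV13-1 TRBJ2-5 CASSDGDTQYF and TRBV15 TRBJ1-4 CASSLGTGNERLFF, with adjusted p of 0.405, 0.405 and 0.433 in edgeR's test. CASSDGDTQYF made up 0.0493%, 0.00194% and 0.0171% of tumor reads in mice 6, 7 and 8 and had no read in any dLN. Higher in dLN were TRBV1 TRBJ2-4 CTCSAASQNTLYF, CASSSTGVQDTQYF and TRBV26 TRBJ1-2 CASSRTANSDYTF, each with an adjusted p of 0.405. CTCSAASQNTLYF made up 0.0438%, 0.00334% and 0.000443% of dLN reads in mice 5, 6 and 7 and had no read in any tumor. Of the 2561, 2159 were found in both tissues when all mice were pooled. This count includes clonotypes found in the tumor of a mouse and only in the dLN of another. A clonotype found in more mice has more chances to enter it, so it is not compared with other clonotypes. Within a single mouse, 29.1% ± 4.31 of its shared clonotypes were found in both tissues (SD, n = 4 mice).

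Shared clonotypes together held 10.9% ± 0.595 of dLN reads and 9.97% ± 1.67 of tumor reads (SD, n = 4 mice). In dLNs the 4 mice had 11.8%, 10.6%, 10.7% and 10.6%, and in tumors 10.9%, 11.7%, 7.90% and 9.40%, in the order of mice 5 to 8. The tumor share was lower in 3 mice and higher in mouse 6, with a difference of -0.920 ± 1.59 percentage points (SD, n = 4), which is within the spread between mice. The direction turned without the 100-fold limit, when the shares were 13.4% in tumors and 11.9% in dLNs, since the 88 excluded clonotypes held between 1.27% and 5.03% of the tumor reads of a mouse and between 0.841% and 1.40% of its dLN reads. It also turned without mouse 7, when clonotypes found in all of mice 5, 6 and 8 held 6.88% of tumor and 6.14% of dLN reads. In mouse 7, the lowest, a TRBV14 TRBJ2-5 clonotype that is not among the shared ones held 6.42% of tumor reads, and without it the share of shared clonotypes there was 8.44%. Counted as clonotypes rather than reads, shared ones made up 5.77% ± 0.978 in tumors and 5.79% ± 0.622 in dLNs (SD, n = 4), so that their share of reads was 1.74 ± 0.212 and 1.89 ± 0.118 times their share of clonotypes.

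**Figure D5:**
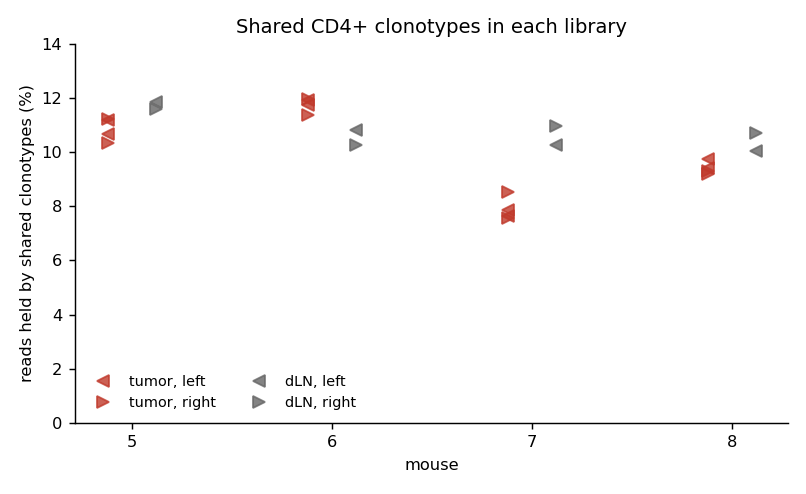
Percentage of the reads of each CD4+ library held by the shared clonotypes, for tumor fragments (red) and dLNs (grey) of the left and right side of 4 mice. The fragments of a mouse lie close together, from 7.57% to 8.54% in mouse 7 and from 11.4% to 12.0% in mouse 6, and the dLNs lie between 10.0% and 11.8%.

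In a single mouse, shared clonotypes were found in several places more often than clonotypes of 1 mouse. Of the shared clonotypes of a mouse, 29.1% ± 4.31 were found in both tumor and dLN, against 9.22% ± 0.438 of clonotypes of 1 mouse (SD, n = 4). Of those found in tumors, 41.3% ± 4.23 were in both tumors, against 21.8% ± 0.642, and of those found in dLNs 28.8% ± 3.13 were in both dLNs, against 9.98% ± 0.381 (SD, n = 4). This was not particular to them, as the 88 clonotypes over the 100-fold limit were at 33.5% ± 7.46, 55.3% ± 12.6 and 36.2% ± 4.27 and those of 2 mice at 16.0% ± 1.35, 30.9% ± 1.28 and 16.0% ± 0.937 (SD, n = 4). Since the rule takes the highest value over both tissues, a clonotype present in more libraries had more chances to be counted in a mouse. Among clonotypes with values over 0.01%, the shares found in both tissues were 60.6% ± 11.6 and 38.2% ± 8.24 (SD, n = 4).

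Each mouse in turn was also set against a choice made from the other 3 mice only. Clonotypes found in all 3 of the other mice within 100-fold were also found in the fourth in 43.7% of cases for mouse 5, 59.8% for mouse 6, 60.3% for mouse 7 and 56.2% for mouse 8. For clonotypes found in 2 of the others, the percentages were 17.9%, 27.9%, 29.0% and 25.3%, and for those found in 1 of the others 2.90%, 4.72%, 5.03% and 4.24%. Mouse 5, with the lowest percentages, also had the fewest clonotypes of 1 mouse, 24222 against up to 42886.

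Most shared CD4+ clonotypes were also present among CD8+ T cells. In at least 1 CD8+ library, 1990 of them (77.7%) were found, and in CD8+ libraries of all 4 mice 578. Of the clonotypes of 2 mice 57.9% were found in a CD8+ library, and of the 88 over the 100-fold limit 78.4%. To set this against clonotypes of 1 mouse, only CD8+ libraries of the other 3 mice were searched, and 73.2% ± 1.80 of the shared clonotypes of a mouse and 15.0% ± 0.919 of its clonotypes of 1 mouse were found there (SD, n = 4). The rule bears on this difference, since shared clonotypes are present in CD4+ libraries of at least 2 of those 3 mice and clonotypes of 1 mouse in none, so nothing is read from it. The CD8+ libraries of different mice shared up to 1573 nucleotide clones, and without the 3 CD8+ libraries that shared most the percentage for shared clonotypes was 69.8% ± 2.57 (SD, n = 4). Shared CD4+ clonotypes held 5.32% ± 2.22 of CD8+ tumor reads and 2.68% ± 0.157 of CD8+ dLN reads (SD, n = 4). No comparison with their share of CD4+ reads is made, since they were chosen from the CD4+ libraries.

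A few shared clonotypes were far more frequent in CD8+ than in CD4+ T cells. The highest CD8+ value exceeded the highest CD4+ value for 309 (12.1%), and it was at least 100 times as high for 6. No such counts are given for the other CD4+ clonotypes, so these are not read as a trait of the shared ones. TRBV26 TRBJ1-6 with a CDR3 of 15 residues reached 0.00523%, 1.39%, 0.409% and 6.24% of a CD8+ library in mice 5 to 8 and 0.00297%, 0.00447%, 0.000870% and 0.0102% of a CD4+ library. TRBV20 TRBJ1-2 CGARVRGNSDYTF reached 0.263%, 2.16%, 0.470% and 0.0988% in CD8+ libraries and at most 0.00973% in CD4+ libraries. TRBV5 TRBJ2-3 with 15 residues reached 2.72% and 2.54% in CD8+ libraries of mice 5 and 6 and none in the others. TRBV13-1 TRBJ1-4 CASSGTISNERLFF reached 2.84% in mouse 7, and TRBV16 TRBJ2-3 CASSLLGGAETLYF 0.322% in mouse 5 and 0.934% in mouse 6. These 5 were named for their mean CD8+ level, and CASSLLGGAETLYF, with a ratio of 96.3, was not among the 6. Whether their CD4+ reads came from CD8+ cells in the sorted CD4+ fraction was not tested. Of the 10 largest shared clonotypes, which were picked for their CD4+ values, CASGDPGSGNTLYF and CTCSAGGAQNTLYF had no read in CD8+ libraries and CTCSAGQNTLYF reached at most 0.0194% there.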

How the data were processed

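The authors trimmed the reads with Cutadapt 3.2 (per the labels), removed low-quality reads with PRINSEQ and used MiXCR to assign segments and assemble clones. The deposited files give, for each clone, a read count without molecular identifiers, the fraction this makes up of the library, and the positions of the segments in the CDR3. The genome build is not given in the sources used here, and the coordinates are those of the GENCODE annotation of GRCm38.

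The deposited counts and fractions were used without down-sampling. Features were averaged per mouse and are given as mean ± SD over 4 mice. The shared clonotypes and the lists were chosen with earlier results of these data known. For the tissue test, reads were summed per mouse and tissue and fitted with edgeR 4.0.16 (quasi-likelihood test, all reads as library size, Benjamini-Hochberg adjustment), tested on simulated data, with DESeq2 1.42.0 as an alternative (R 4.3.3). Samples labelled with the same number, 5 to 8, come from the same mouse, which gives the pairing for the replicate block.

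The clonotypes named were the 10 with the highest mean value, the 3 with the smallest p in each direction of the tissue test, the 5 with the most nucleotide sequences, 3 on each side of the 100-fold limit and the 5 highest in CD8+ libraries. The segments named were the 3 V and the 3 J segments with the largest difference in each direction. The TRBV14 TRBJ2-5 clonotype of mouse 7, TRBV23 and TRBV24 were added to these once their values were known. Alternatives covered a draw to 6 reads per sorted cell, read minimums, the fold limit, the clonotype definition, each tissue alone and each mouse left out. Tables were made with Python 3.11.15, numpy 2.4.6 and pandas 2.3.3, and figures with matplotlib 3.10.9.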

Additional observations from a re-analysis of the deposited data

Results flagged for a closer look

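In groups of 4 mice, 79 sets of values were searched for a mouse far from the other 3, and 17 such values were found. The limit used flags about 1 in 20 sets of normally distributed values by chance, a rate not known to hold for these sets, which hold many zeros and clonotypes picked for extreme values. Most of the 17 belong to rare clonotypes with no or few reads in the other mice. The share of dLN reads held by shared clonotypes was 11.8% in mouse 5 and between 10.6% and 10.7% in the others.

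Several shared clonotypes were high in the tumors or dLNs of a single mouse. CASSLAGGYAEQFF made up 0.0879% of tumor reads in mouse 8 and at most 0.00164% in the others. In mouse 5, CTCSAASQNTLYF made up 0.0438% of dLN reads against at most 0.00334% in the others, and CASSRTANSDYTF 0.0289% against at most 0.00374%. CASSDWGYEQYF made up 0.0172% of tumor reads in mouse 5 and at most 0.00155% in the others. The TRBV13-2 TRBJ2-4 clonotype with 16 residues stood out in the tumors of mouse 5 with 0.00845% and in the dLNs of mouse 6 with 0.00203%.

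The clonotypes just outside the 100-fold limit stood out as well, as the limit selects for. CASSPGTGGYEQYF made up 0.0203% of dLN reads in mouse 5. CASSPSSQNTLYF made up 0.000501% of tumor reads in mouse 7 and 0.00385% of dLN reads in mouse 6. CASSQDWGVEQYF made up 0.0339% of tumor and 0.0135% of dLN reads in mouse 7.

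Of the clonotypes that were high in CD8+ libraries, the TRBV5 TRBJ2-3 clonotype with 15 residues made up 0.00385% of CD4+ tumor reads in mouse 6 and 0.000861% of CD4+ dLN reads in mouse 8, where no other mouse had a read. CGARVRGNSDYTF made up 0.00660% of CD4+ tumor reads and 0.00271% of CD4+ dLN reads in mouse 6, and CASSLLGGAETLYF 0.00183% of CD4+ tumor reads in mouse 5. Mouse 6 also had the highest CD8+ value of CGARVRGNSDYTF, 2.16%.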

How the results depend on the processing

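The differences in CDR3 length, inserted bases and nucleotide sequences kept their direction under every alternative run. With sequences defined by V, J and nucleotides, 636 clonotypes were shared, the differences were -0.88 residues and -2.18 inserted bases, the shared clonotypes held 2.59% of dLN and 2.56% of tumor reads, and 61.4% were found in CD8+ libraries of other mice. With tumor libraries only, 661 were shared, with differences of -0.68 residues and -1.78 bases and 75.5% found in CD8+ libraries, and with dLN libraries only 1317, with -0.61 residues and -1.55 bases. Weighted by reads, the differences were -0.58 residues and -1.44 bases. In nucleotide sequences per clonotype the difference was 0.0339 for values under 0.001%, 0.284 between 0.001% and 0.01% and 0.791 over 0.01%. The shared clonotypes held 6.80% of dLN and 5.07% of tumor reads with a limit of 10-fold, 11.9% and 13.4% with none, and 9.80% and 8.28% with the mean over libraries in place of the highest value. The causes of these shifts were not tested. The draw to 6 reads per sorted cell left 2477 shared clonotypes.

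Without each mouse in turn, where a clonotype had to be found in all 3 others, 968 to 1343 were shared. The difference in length was -0.75 to -0.70 residues, that in inserted bases -1.73 to -1.64, and that in nucleotide sequences 0.516 to 0.540. Shared clonotypes then held 6.14% to 7.77% of dLN and 6.59% to 7.36% of tumor reads, with the tumor share the higher without mouse 7 (6.88% against 6.14%), and 66.4% to 71.1% were found in CD8+ libraries. All counts are lower because fewer mice can hold a clonotype.

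The following were chosen after seeing the data. With the longest D match the difference in inserted bases was -2.14. Within V and J pairs the difference in length was -0.62. With sequences of at least 10% of the reads, the difference in nucleotide sequences was 0.254. Without the 3 CD8+ libraries that shared most clones, 69.8% were found in CD8+ libraries. Without the largest clonotype of mouse 7, the tumor share was 10.1%.

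No shared clonotype was called between tumor and dLN under any alternative among those it tested, with 346 left without an adjusted p by DESeq2. With the replicate block, which pairs the tissues of a mouse, 0 were called, and 5 and 14 had an unadjusted p under 0.05. With clonotypes in 2 of the 8 sums allowed, these numbers were 1 and 300, and with at least 10 reads and 4 sums, which left 1618 shared clonotypes to test, 12 and 33. The median log2 ratio of all tested clonotypes was -0.85 with all reads as library size, -0.25 with TMM and -0.08 with DESeq2, and that of the shared ones -1.28, -0.61 and -0.43. With the replicate block these medians were -1.44 for all tested and -2.94 for the shared ones. Of the named clonotypes, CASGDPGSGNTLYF changed sign from -0.29 to 0.080 with DESeq2 and ranged from -0.94 without mouse 5 to 0.32 without mouse 8. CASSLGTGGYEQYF changed sign from -0.18 to 0.86 with TMM and 1.02 with DESeq2, and ranged from -0.54 without mouse 6 to 0.0044 without mouse 8. A clonotype under the limit that a count of 0 allows could go undetected at this depth, and 36 shared clonotypes rested on a single read in some mouse.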
